A study of Homo sapiens with 9 samples.

Results

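Expression arrays of WM793TR melanoma cells were examined for 37 genes of the Hippo pathway and its YAP-TEAD output, out of 19934 genes tested. The genes came from a list of named pathway members and targets, drawn up with earlier results of these data known, and all 37 were measured. There were 20 pathway members, which comprised 7 core kinases and upstream regulators, 5 scaffolds and other regulators of LATS or YAP1, and 8 coactivators and DNA-binding partners. The other 17 were target genes. WM793TR is a vertical growth phase, mutant BRAF melanoma line. The cells carried a TWIST1 shRNA with a CMV-regulated TWIST1 rescue construct (shTWIST1 + TWIST1), the TWIST1 shRNA alone (shTWIST1), or a control shRNA (shControl), with 3 arrays per group and 9 in all. The labels of single arrays read TWIST1 overexpression, TWIST1 knockdown and TWIST1 basal, and basal was taken here to be the control shRNA that the growth protocol names. Every culture, controls included, received 100 ng/mL doxycycline for 96 h, which induced the shRNA or transgene. The labels do not say that the arrays of a group came from separate cultures, so p-values measure only the spread between these arrays, which may be technical.

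The Hippo pathway is a kinase cascade that restrains growth. The STK3 and STK4 kinases with their scaffold SAV1 activate the LATS kinases, which phosphorylate the coactivators YAP1 and WWTR1 (TAZ) and keep them out of the nucleus. Coactivators that escape this enter the nucleus and bind TEAD factors, which carry them to genes of matrix, adhesion and cytoskeleton such as CCN1 and CCN2. In melanoma, YAP1 and WWTR1 have been tied to invasive growth. Their activity is set mainly by phosphorylation and location, which arrays of RNA do not measure. TWIST1 is a basic helix-loop-helix factor known for driving epithelial-mesenchymal transition.

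Values are log2 expression as deposited, made with RMA, so a difference of 1 is a 2-fold change. TWIST1 measured 8.75, 8.90 and 8.27 on the shTWIST1 + TWIST1 arrays, 6.18, 6.22 and 6.28 on the shTWIST1 arrays and 6.77, 7.10 and 7.15 on the shControl arrays. The 3 groups did not overlap. TWIST1 rose 5.32-fold in shTWIST1 + TWIST1 against shTWIST1 (adjusted p = 0.000291, limma with Benjamini-Hochberg adjustment) and 3.10-fold against shControl (adjusted p = 0.00199), while its log2 difference of -0.78 in shTWIST1 against shControl did not pass the test (adjusted p = 0.293). SOX10, a neural crest and melanocyte factor, was between 8.07 and 9.05 on all arrays, but PMEL, MLANA and TYR were among the dimmest 30% of genes. The 6 measured melanocyte markers summed to 9.31 to 9.50 (log2 of the summed levels) in shTWIST1 + TWIST1, 10.32 to 10.59 in shTWIST1 and 10.79 to 11.25 in shControl, with S100B lower in the rescue cells. The listed markers of endothelial cells (4 of 4) and leukocytes (3 of 3) were all that dim, as were 2 of 3 keratinocyte markers. The 4 fibroblast markers summed to 8.49 to 9.41 (log2 of the summed levels) in shTWIST1 + TWIST1, 7.06 to 7.34 in shTWIST1 and 7.45 to 7.75 in shControl. DCN was 6.68 on shTWIST1 + TWIST1 replicate 1, against 2.74 to 3.50 on the other 8 arrays. PDGFRA and LUM were higher on all 3 shTWIST1 + TWIST1 arrays than on the rest. PDGFRA was 7.95 to 8.34 there, against 6.35 to 7.20, and LUM 6.15 to 7.85, against 4.15 to 5.57. COL1A1 lay between 4.43 and 4.70 on all arrays. The part of these markers in the results was not tested. Values without shTWIST1 + TWIST1 replicate 1 are given where they change a call.

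SAV1 and TEAD2 rose in shTWIST1 + TWIST1, where TWIST1 lay above its shControl level, and DOCK5 and MYOF fell, against either of the other groups. CCN2 and RBMS3 fell in shTWIST1 + TWIST1 against shTWIST1 alone. In shTWIST1 + TWIST1 against shControl, 4 of the 37 genes (10.8%) passed an adjusted p of 0.05, against 2.62% of all genes tested. In shTWIST1 + TWIST1 against shTWIST1, 6 of 37 (16.2%) passed, against 3.42% of all genes. In shTWIST1 against shControl, 0 of 37 passed, against 0.0652% of all genes. These comparisons share arrays and are not independent. In RNA of whole cultures, fewer cells that express a gene and less of its RNA per cell cannot be told apart, nor can TWIST1 and any other difference between the 3 engineered populations.

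**Figure D1:**
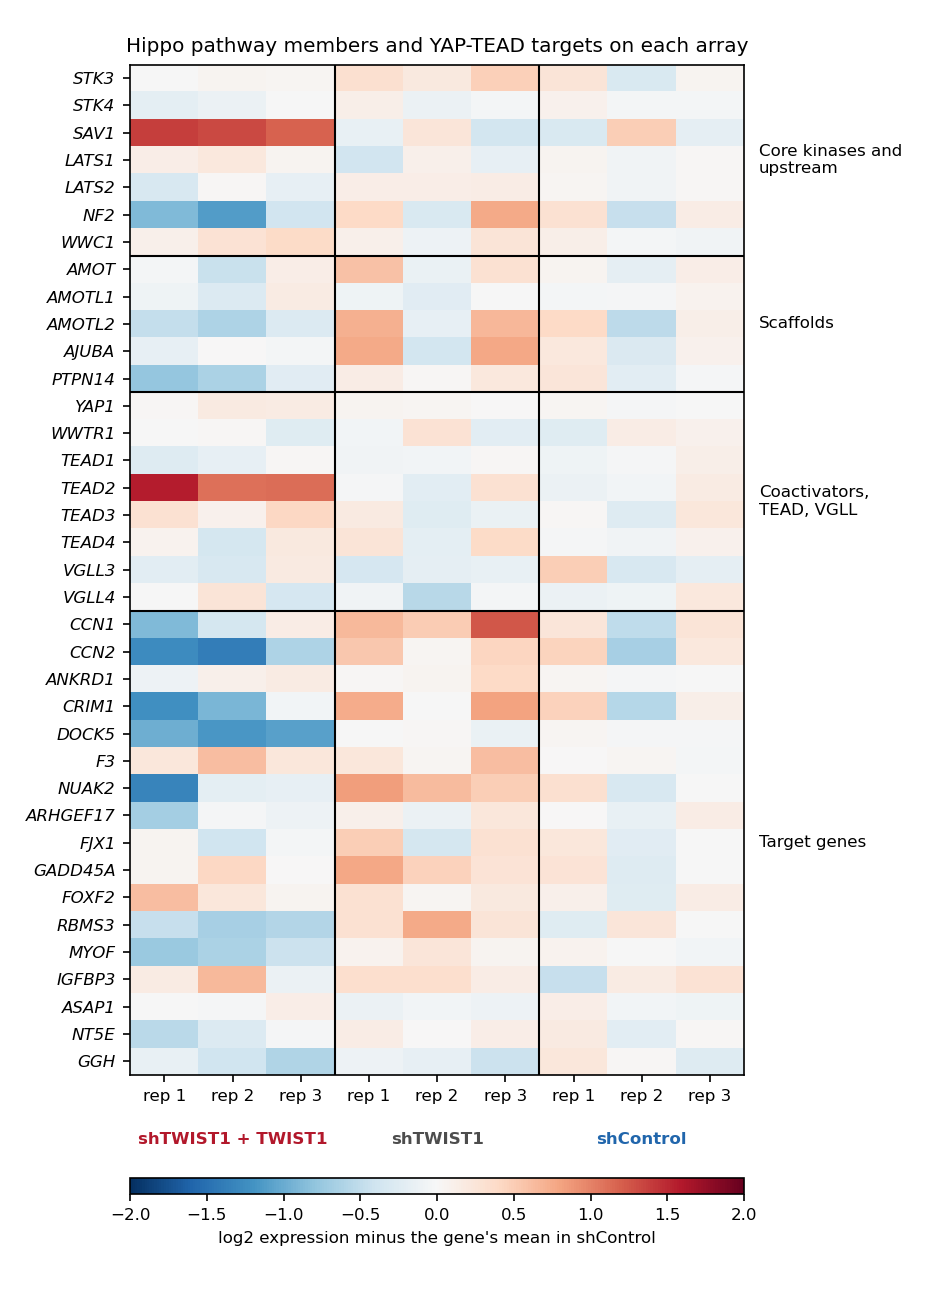
Each row is a gene and each column an array, grouped as shTWIST1 + TWIST1, shTWIST1 and shControl, and color gives log2 expression minus the gene's mean in shControl. SAV1 and TEAD2 are red on the 3 shTWIST1 + TWIST1 arrays, while DOCK5, MYOF, RBMS3 and CCN2 are blue there.

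**Figure D2:**
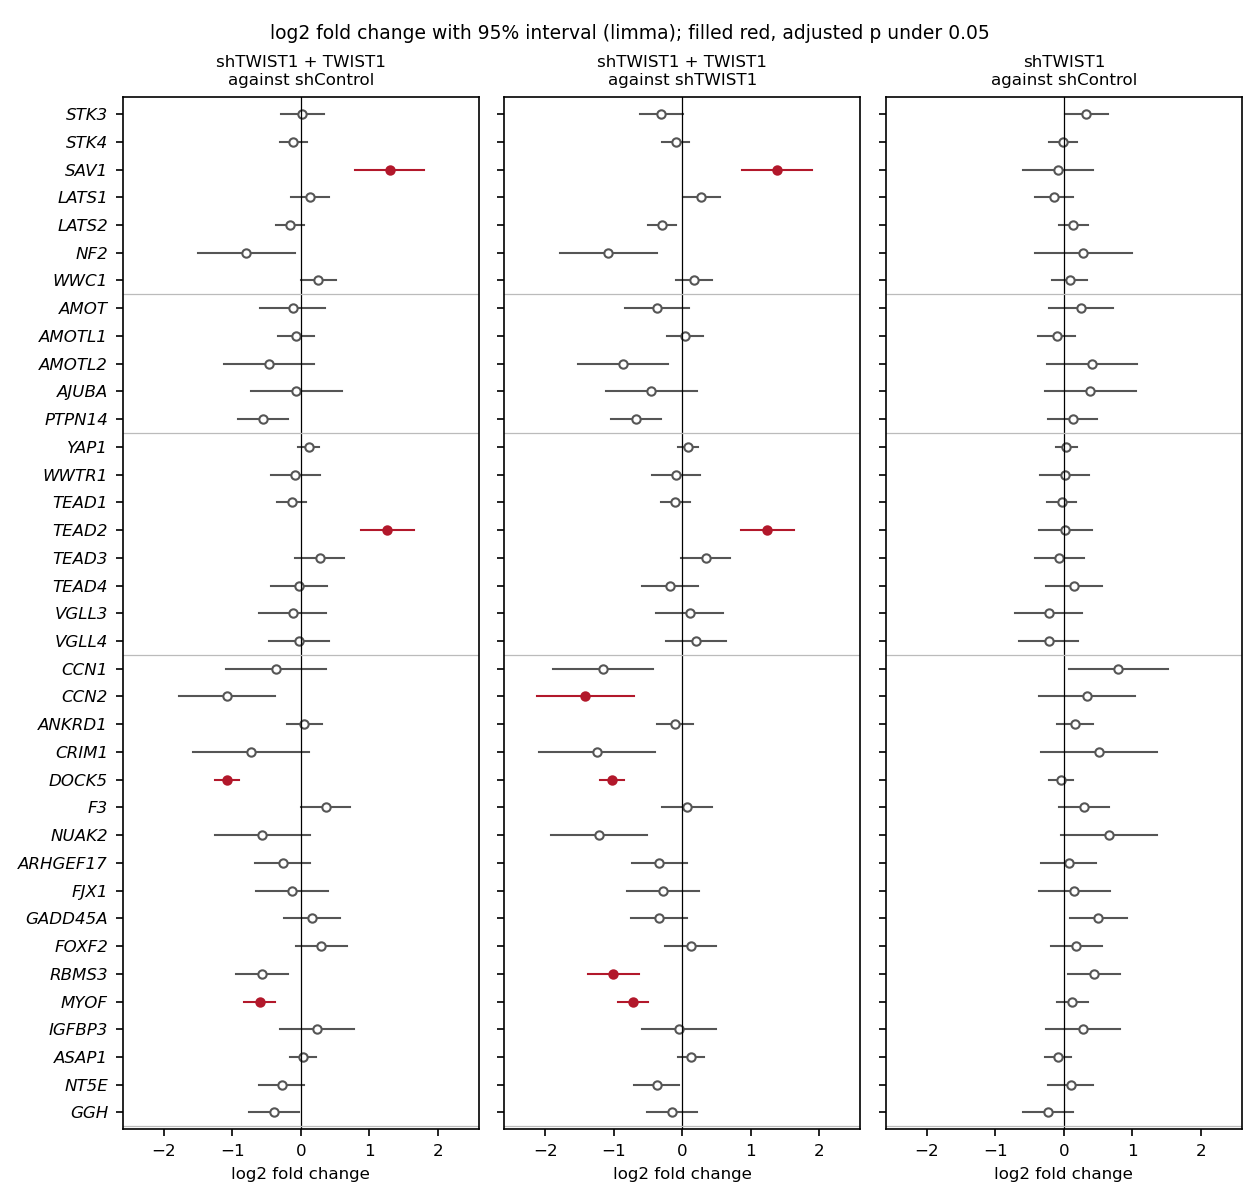
The log2 fold change of each of the 37 genes (points) with its 95% interval (lines) is plotted for the 3 comparisons, with genes past the threshold filled in red. In the right panel, shTWIST1 against shControl, no gene is filled, and 14 of the 17 target genes lie above 0.

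Because TEAD factors bind the sequence GGAATG, promoters were searched for these letters on both strands (GGAATG or CATTCC) in the 250 bases before the annotated start. RefSeq promoters (GRCh38.p14) were matched for 27 of the 37 genes. At least 1 match was found in 6 of these 27 (22.2%), against 9.98% of the 14686 genes tested that had a promoter. By class, 4 of 10 target genes and 2 of 17 pathway members held a match. A match describes letters and is not a binding site. Of the 6, the promoters of CCN2, NUAK2, ANKRD1 and PTPN14 are shown. CCN2 had the most matches and passed the test, and ANKRD1 holds matches but lay among the dimmest genes. NUAK2 and PTPN14 missed the main test but were lower in shTWIST1 + TWIST1 than in shTWIST1 in 3 of 3 same-numbered pairs. Of all genes, 17.2% were lower in this way. Since direction entered the choice, the promoters shown cannot link a match to a fall. Capitals mark the matches, and each promoter is written 5′ to 3′ on the gene's own strand, which is the minus strand for all 4, and ends at the base before the start.
CCN2, chr6:131951373-131951622: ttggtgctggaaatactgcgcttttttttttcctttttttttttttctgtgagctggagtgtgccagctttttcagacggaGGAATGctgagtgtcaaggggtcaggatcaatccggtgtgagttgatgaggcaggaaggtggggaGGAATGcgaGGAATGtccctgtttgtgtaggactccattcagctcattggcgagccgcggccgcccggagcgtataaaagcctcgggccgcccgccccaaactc
NUAK2, chr1:205321746-205321995: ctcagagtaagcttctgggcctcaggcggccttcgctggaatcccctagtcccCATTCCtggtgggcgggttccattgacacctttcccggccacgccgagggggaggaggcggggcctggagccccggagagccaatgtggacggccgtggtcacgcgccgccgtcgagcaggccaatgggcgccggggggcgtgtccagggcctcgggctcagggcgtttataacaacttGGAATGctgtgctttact
ANKRD1, chr10:90921088-90921337: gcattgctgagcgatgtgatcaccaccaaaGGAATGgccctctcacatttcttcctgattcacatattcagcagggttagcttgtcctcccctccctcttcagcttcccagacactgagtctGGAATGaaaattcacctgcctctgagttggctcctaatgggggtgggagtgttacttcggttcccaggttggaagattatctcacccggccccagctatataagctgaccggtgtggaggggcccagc
PTPN14, chr1:214551603-214551852: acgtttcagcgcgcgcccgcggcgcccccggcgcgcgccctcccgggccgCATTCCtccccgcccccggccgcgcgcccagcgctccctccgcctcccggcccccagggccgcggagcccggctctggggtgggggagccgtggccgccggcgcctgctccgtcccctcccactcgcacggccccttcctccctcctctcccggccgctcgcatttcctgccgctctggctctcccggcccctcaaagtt

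The 3 CCN2 matches begin at -169, -104 and -95 from the start, and the last of these lies just downstream of the one before it. NUAK2 holds matches at -197 and -18, ANKRD1 at -220 and -128, and PTPN14 at -200. FOXF2 and YAP1 held 1 match each, and neither was lower on average in shTWIST1 + TWIST1 than in shTWIST1. Their means were 5.63 against 5.51 for FOXF2 and 8.99 against 8.91 for YAP1. The E-box CANNTG, the class of sequence that TWIST1 and other basic helix-loop-helix factors bind, was found on either strand in 14 of the 27 promoters (51.9%), against 57.4% of all promoters. CCN2, NUAK2 and PTPN14 held no CANNTG in this window, and the promoters of SAV1, TEAD2 and RBMS3 held neither motif. MYOF held 1 CANNTG, at -161, and no GGAATG. Promoters of STK3, TEAD1, TEAD4, CCN1, CRIM1, DOCK5, ARHGEF17, GADD45A, ASAP1 and GGH were not matched.

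Among the core kinases and upstream regulators, SAV1 (Entrez gene 60485), the scaffold of the STK3 and STK4 kinases, measured 8.06, 7.99 and 7.86 on the shTWIST1 + TWIST1 arrays, 6.53, 6.92 and 6.31 on the shTWIST1 arrays and 6.37, 7.16 and 6.49 on the shControl arrays. All 3 shTWIST1 + TWIST1 arrays lay above the other 6, and replicate 2 was the highest array of both other groups. SAV1 rose 2.61-fold in shTWIST1 + TWIST1 against shTWIST1 (log2 1.38, SE 0.22, adjusted p = 0.0146) and 2.46-fold against shControl (log2 1.30, SE 0.22, adjusted p = 0.0228). The call against shTWIST1 was lost on leaving out any of 3 arrays (shTWIST1 + TWIST1 replicate 1, shTWIST1 replicate 1 or 3, adjusted p = 0.0546 to 0.0664). Against shControl it was lost on leaving out any of 6 arrays (any of the 3 shTWIST1 + TWIST1 arrays, shTWIST1 replicate 1, shControl replicate 1 or 3, adjusted p = 0.0502 to 0.0899).

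NF2 (merlin), which recruits LATS kinases to the membrane, measured 7.58, 7.36 and 8.08 on the shTWIST1 + TWIST1 arrays, 8.87, 8.17 and 9.22 on the shTWIST1 arrays and 8.78, 8.02 and 8.62 on the shControl arrays. In shTWIST1 + TWIST1 it lay below all shTWIST1 arrays but overlapped shControl, and replicate 2 was the lowest array of each group. The log2 difference against shTWIST1 was -1.08 (SE 0.31) and missed the threshold (adjusted p = 0.113). With the replicate number as a block, since arrays of the same number deviated together in these groups, NF2 fell in that comparison (adjusted p = 0.0102). The difference against shControl was -0.80 (SE 0.31, adjusted p = 0.284).

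The kinases themselves did not pass the test in any comparison. STK3 was 6.23 to 6.28 in shTWIST1 + TWIST1, 6.43 to 6.71 in shTWIST1 and 5.93 to 6.49 in shControl. STK4 lay between 8.24 and 8.57 on all arrays. LATS1 ranged from 7.07 to 7.67, and its log2 difference in shTWIST1 + TWIST1 was 0.28 against shTWIST1 (95% interval 0.01 to 0.55, adjusted p = 0.279). LATS2, a kinase that is also a YAP-TEAD target, was 5.21 to 5.56 in shTWIST1 + TWIST1, 5.66 to 5.69 in shTWIST1 and 5.47 to 5.58 in shControl. Its 3 shTWIST1 arrays were the highest of the 9. WWC1 (KIBRA), which works with NF2, lay between 4.33 and 4.81.

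None of the 5 scaffolds and other regulators passed the main test. AMOTL2, an angiomotin that binds and retains YAP1 and is itself a YAP-TEAD target, measured 5.24, 5.09 and 5.44 on the shTWIST1 + TWIST1 arrays, 6.42, 5.55 and 6.37 on the shTWIST1 arrays and 6.12, 5.19 and 5.83 on the shControl arrays. Replicate 2 was again the lowest array of each group. The log2 difference against shTWIST1 was -0.86 (SE 0.29, adjusted p = 0.167), and with the replicate block AMOTL2 fell (adjusted p = 0.0270).

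PTPN14, a phosphatase that binds YAP1 and holds it in the cytoplasm, measured 8.70, 8.83 and 9.24 on the shTWIST1 + TWIST1 arrays, 9.62, 9.49 and 9.69 on the shTWIST1 arrays and 9.71, 9.26 and 9.44 on the shControl arrays. All 3 shTWIST1 + TWIST1 arrays lay below the other 6. The log2 difference was -0.67 against shTWIST1 (SE 0.16, adjusted p = 0.0627, with the replicate block 0.0482) and -0.55 against shControl (SE 0.16, adjusted p = 0.146). AJUBA, a LIM protein that inhibits LATS, was 5.52 to 5.69 in shTWIST1 + TWIST1, 5.32 to 6.45 in shTWIST1 and 5.39 to 5.90 in shControl. The shTWIST1 range was set by replicate 2, which was 1.13 below the mean of the other 2 arrays (a difference in log2 expression). AMOT and AMOTL1, the other angiomotins, lay between 6.24 and 7.27 and between 7.92 and 8.37.

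The coactivators did not pass the test in any comparison. YAP1 lay between 8.85 and 9.05 on all 9 arrays, with the smallest spread within groups of the 37 genes (pooled SD 0.05 log2). Its log2 difference in shTWIST1 + TWIST1 was 0.08 against shTWIST1 (95% interval -0.07 to 0.24) and 0.12 against shControl (95% interval -0.03 to 0.27), and in shTWIST1 against shControl it was 0.03 (95% interval -0.12 to 0.19). WWTR1 lay between 10.11 and 10.64, with differences of -0.09 (95% interval -0.44 to 0.26), -0.08 (-0.43 to 0.27) and 0.01 (-0.34 to 0.36) in the same order.

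Of the 4 TEAD factors, TEAD2 alone passed the test. TEAD2 (Entrez gene 8463) measured 7.27, 6.79 and 6.81 on the shTWIST1 + TWIST1 arrays, 5.67, 5.48 and 5.998 on the shTWIST1 arrays and 5.58, 5.64 and 5.86 on the shControl arrays. The lowest shTWIST1 + TWIST1 array was above the highest of the other 6. TEAD2 rose 2.36-fold in shTWIST1 + TWIST1 against shTWIST1 (log2 1.24, SE 0.17, adjusted p = 0.00702) and 2.40-fold against shControl (log2 1.26, SE 0.17, adjusted p = 0.00793). Both calls held when any 1 of the 9 arrays was left out, and without shTWIST1 + TWIST1 replicate 1, the array that stands apart in DCN, the log2 differences were 1.09 (adjusted p = 0.0190) and 1.11 (adjusted p = 0.0206).

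TEAD1 was between 7.69 and 8.06, TEAD3 between 5.16 and 5.83, and TEAD4 between 5.20 and 5.94. Among these, TEAD3 had the largest difference in shTWIST1 + TWIST1, of 0.34 log2 against shTWIST1 (SE 0.16, adjusted p = 0.306). VGLL3, a TEAD cofactor, and VGLL4, which competes with YAP1 for TEAD, lay between 3.92 and 4.75 and between 3.73 and 4.56 and did not pass in any comparison.

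Among the targets, DOCK5 and MYOF fell in both comparisons of the rescue cells. DOCK5 (Entrez gene 80005), an exchange factor for the GTPase RAC, measured 7.63, 7.45 and 7.53 on the shTWIST1 + TWIST1 arrays, 8.59, 8.62 and 8.47 on the shTWIST1 arrays and 8.65, 8.59 and 8.58 on the shControl arrays. The shTWIST1 + TWIST1 arrays were far below the other 6, which overlapped each other. DOCK5 was 2.04-fold lower in shTWIST1 + TWIST1 than in shTWIST1 (log2 -1.03, SE 0.08, adjusted p = 0.000395) and 2.10-fold lower than in shControl (log2 -1.07, SE 0.08, adjusted p = 0.000496), and both calls held when any 1 array was left out.

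MYOF (Entrez gene 26509), which encodes myoferlin, a protein of membrane repair and fusion, measured 9.27, 9.38 and 9.58 on the shTWIST1 + TWIST1 arrays, 10.08, 10.25 and 10.06 on the shTWIST1 arrays and 10.08, 9.99 and 9.95 on the shControl arrays. Again all 3 rescue arrays were the lowest. MYOF fell 1.65-fold against shTWIST1 (log2 -0.72, SE 0.10, adjusted p = 0.00648), a call that held when any 1 array was left out. It fell 1.51-fold against shControl (log2 -0.60, SE 0.10, adjusted p = 0.0177), a call lost without shTWIST1 + TWIST1 replicate 1 or any of the 3 shControl arrays (adjusted p = 0.0519 to 0.0805).

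CCN2 and RBMS3 fell in shTWIST1 + TWIST1 against shTWIST1. CCN2 (connective tissue growth factor, Entrez gene 1490), a matrix protein and the target most often read as YAP-TEAD output, measured 7.78, 7.65 and 8.41 on the shTWIST1 + TWIST1 arrays, 9.56, 9.07 and 9.46 on the shTWIST1 arrays and 9.48, 8.37 and 9.24 on the shControl arrays. The rescue arrays lay below every shTWIST1 array, while shControl replicate 2 was under the highest rescue array. CCN2 was 2.67-fold lower in shTWIST1 + TWIST1 than in shTWIST1 (log2 -1.42, SE 0.31, adjusted p = 0.0475). That call was lost on leaving out any of 6 arrays (shTWIST1 + TWIST1 replicate 1 or 2, any of the 3 shTWIST1 arrays, or shControl replicate 3, adjusted p = 0.0593 to 0.154). It was also lost when limma used array weights (adjusted p = 0.0527). Against shControl the log2 difference was -1.08 (SE 0.31, adjusted p = 0.137).

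RBMS3 (Entrez gene 27303), an RNA-binding protein, measured 7.20, 7.00 and 7.07 on the shTWIST1 + TWIST1 arrays, 7.96, 8.42 and 7.91 on the shTWIST1 arrays and 7.41, 7.90 and 7.65 on the shControl arrays. The 3 groups did not overlap, in ascending order shTWIST1 + TWIST1, shControl and shTWIST1. RBMS3 was 2.01-fold lower in shTWIST1 + TWIST1 than in shTWIST1 (log2 -1.01, SE 0.16, adjusted p = 0.0156), a call lost only without shTWIST1 + TWIST1 replicate 3 (adjusted p = 0.0534) among the 9 arrays left out in turn. The difference of -0.57 against shControl missed the threshold (SE 0.16, adjusted p = 0.146).

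**Figure D3:**
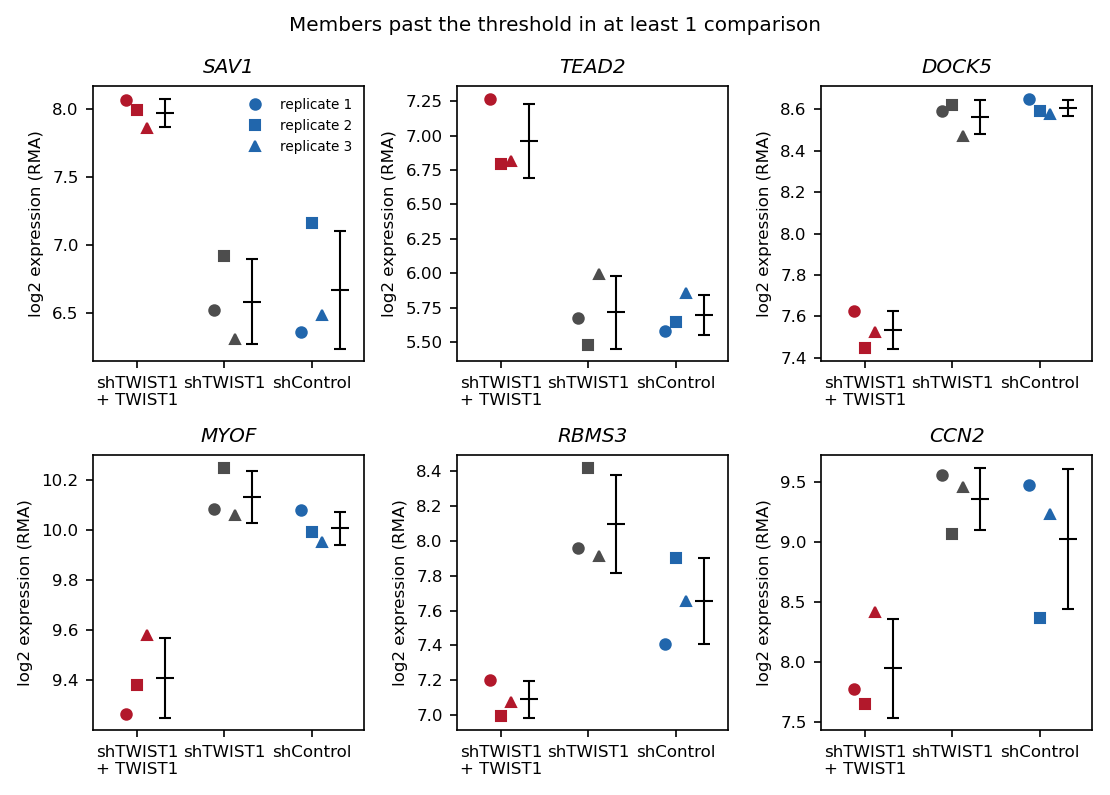
Points are single arrays (shape gives the replicate number) and bars the mean and SD of log2 expression in shTWIST1 + TWIST1, shTWIST1 and shControl for the 6 genes past the threshold in at least 1 comparison; the axes do not start at 0. The shTWIST1 + TWIST1 arrays lie above the other 6 for SAV1 and TEAD2 and below them for DOCK5, MYOF and RBMS3, and overlap shControl for CCN2.

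CCN1 (CYR61), a matrix protein related to CCN2, measured 7.16, 7.69 and 8.19 on the shTWIST1 + TWIST1 arrays, 8.69, 8.54 and 9.28 on the shTWIST1 arrays and 8.29, 7.54 and 8.29 on the shControl arrays. The shTWIST1 arrays were above all others. The log2 difference of shTWIST1 + TWIST1 against shTWIST1 was -1.16 (SE 0.32, adjusted p = 0.0986), and with the replicate block CCN1 fell (adjusted p = 0.0341). In shTWIST1 against shControl the difference was 0.80 (SE 0.32), the largest of the 37 in that comparison, and did not pass (adjusted p = 0.691, with the block 0.392).

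CRIM1, a transmembrane regulator of growth factors, measured 7.68, 7.98 and 8.84 on the shTWIST1 + TWIST1 arrays, 9.64, 8.89 and 9.70 on the shTWIST1 arrays and 9.36, 8.33 and 9.01 on the shControl arrays. It had the widest spread within groups of the 37 genes (pooled SD 0.53 log2). The difference of -1.24 against shTWIST1 did not pass without the block (SE 0.37, adjusted p = 0.127) or with it (adjusted p = 0.0526). NUAK2, a kinase that acts on actomyosin, measured 4.33, 5.45 and 5.47 on the shTWIST1 + TWIST1 arrays, 6.48, 6.28 and 6.14 on the shTWIST1 arrays and 5.97, 5.32 and 5.64 on the shControl arrays. Its difference of -1.22 against shTWIST1 missed the threshold (SE 0.30, adjusted p = 0.0752, with the block 0.0945), and replicate 1 of the rescue cells was the lowest of the 9 arrays.

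The remaining 10 targets did not pass the main test in any comparison. NT5E (CD73), an enzyme that makes adenosine, was 9.44 to 9.95 in shTWIST1 + TWIST1, 9.98 to 10.12 in shTWIST1 and 9.77 to 10.16 in shControl. GADD45A, a growth arrest protein, was 6.45 to 6.85 in shTWIST1 + TWIST1, 6.71 to 7.21 in shTWIST1 and 6.17 to 6.71 in shControl. F3 (tissue factor) was 5.03 to 5.42 in shTWIST1 + TWIST1, 4.84 to 5.41 in shTWIST1 and 4.76 to 4.83 in shControl, so that the shControl arrays were the lowest of the 9. IGFBP3, which binds insulin-like growth factors, was between 10.75 and 11.88 over all arrays, FJX1, a Golgi protein of the Fat and Dachsous branch, between 6.55 and 7.45, and ARHGEF17, a guanine nucleotide exchange factor, between 4.70 and 5.60. FOXF2, a forkhead factor, was between 5.09 and 5.95, ASAP1, an ARF regulator, between 8.44 and 8.69, and GGH, which processes folates, between 8.22 and 9.05. The log2 difference of GGH in shTWIST1 + TWIST1 against shControl was -0.38 (SE 0.16, adjusted p = 0.319). ANKRD1, a cardiac and stress-induced target, lay between 2.40 and 2.89, and was the single gene of the 37 among the dimmest 30% of all genes.

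Taking the classes apart, 2 of 20 pathway members passed in shTWIST1 + TWIST1 against shTWIST1, both higher, while 4 of 17 targets passed, all lower, against 1.65% of all genes called higher and 1.77% called lower. Against shControl, 2 of 20 pathway members passed, both higher, and 2 of 17 targets, both lower, against 1.08% and 1.55% of all genes. The median log2 fold change of the 17 targets was -0.34 against shTWIST1 and -0.28 against shControl, beside 0.01 and 0.02 over all genes. That of the 20 pathway members was -0.09 and -0.07. With the replicate block, 10 of 37 genes passed against shTWIST1 (5.40% of all genes did), since NF2, AMOTL2, PTPN14 and CCN1 were added. Of the 10, 2 were higher (2.59% of all genes) and 8 lower (2.81% of all genes). The genes called without the block passed with it as well. Their adjusted p was lower with the block for SAV1 (0.00579), CCN2 (0.0114) and RBMS3 (0.0147). It was higher for TEAD2 (0.00852), DOCK5 (0.00098) and MYOF (0.0142).

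Without the block, 13 of the 37 genes had all shTWIST1 + TWIST1 arrays below all shTWIST1 arrays (8.86% of all genes), among them 8 of the 17 targets, and 3 of 37 had them all above (9.77% of all genes). Between arrays of the same number, 18 of 37 were lower in 3 of 3 pairs (17.2% of all genes), of which 11 were targets, and 5 were higher (19.6% of all genes). Against shControl, 4 of 37 genes had all rescue arrays below all shControl arrays (PTPN14, DOCK5, RBMS3 and MYOF, against 8.15% of all genes) and 4 had them above (SAV1, LATS1, TEAD2 and F3, against 10.4% of all genes).

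Knockdown alone gave differences that did not pass the test. For most targets they lay above 0, while pathway members lay on both sides of 0. In shTWIST1 against shControl, 14 of the 17 targets had a log2 fold change above 0, with a median of 0.18, beside 0.02 over all genes, of which 44.5% were below 0. Between arrays of the same number, 16 of 37 genes were higher in 3 of 3 pairs (16.7% of all genes), 10 of them targets, and 2 were lower (15.1% of all genes). The groups did not overlap for LATS2, CCN1, F3, NUAK2 and RBMS3, all higher in shTWIST1 (5 of 37, 13.5%, against 5.66% of all genes), and for 0 of 37 in the other direction (6.18% of all genes). None of the 37 passed in limma with or without the replicate block, which called 0.0602% of all genes, or in the methods' t-test after adjustment. At an unadjusted p under 0.05, limma gave 4 (STK3, CCN1, GADD45A and RBMS3, 10.8%, against 6.62% of all genes, and all higher, as were 2.66% of all genes) and the methods' t-test 0. The shTWIST1 arrays enter this comparison as well as the one with shTWIST1 + TWIST1, so a high value on them moves both.

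Arrays numbered 2 were often low for these genes. In shTWIST1, replicate 2 was the lowest of the 3 arrays for 22 of 37 genes (59.5%), against 37.2% of all genes, and in shControl for 23 of 37 (62.2%), against 30.8% of all genes. In shTWIST1 + TWIST1 it was so for 13 of 37 (35.1%), against 33.9% of all genes. The array weights that limma estimates were lowest for replicate 2 of shTWIST1 + TWIST1 (0.45) and of shTWIST1 (0.52). Replicate 2 of shControl had a weight of 1.30. The 4 pathway members that are also YAP-TEAD targets (LATS2, AMOTL2, AJUBA and PTPN14) were each lowest on replicate 2 in both shTWIST1 and shControl. In shControl, replicate 2 minus the mean of the other 2 arrays was -0.99 log2 for CCN2, -0.86 for CRIM1, -0.79 for AMOTL2, -0.76 for CCN1 and -0.68 for NF2, but 0.74 for SAV1. The cause was not tested. The median spread within groups was 0.22 log2 (SD) for the 37 genes and 0.15 for all genes.

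**Figure D4:**
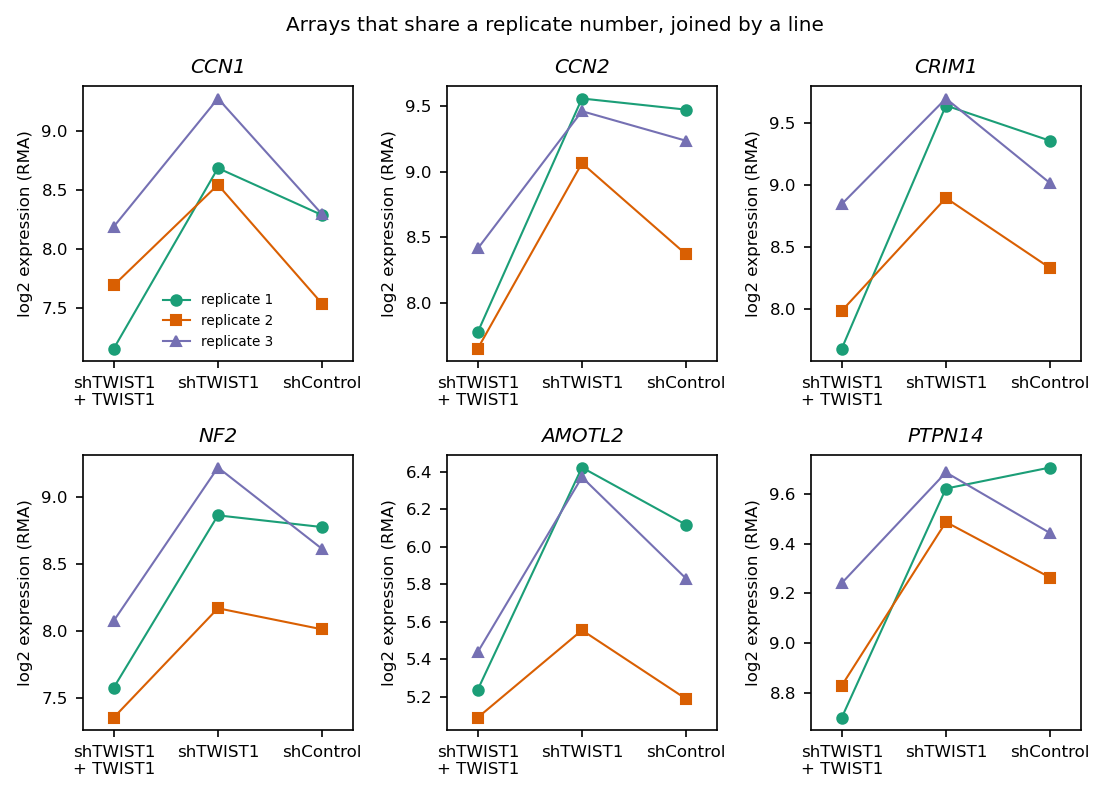
Log2 expression of 6 genes in shTWIST1 + TWIST1, shTWIST1 and shControl, with arrays of the same replicate number joined by a line; the axes do not start at 0. Every line is lower at shTWIST1 + TWIST1 than at shTWIST1, and replicate 2 is the lowest line at shTWIST1 and shControl for all 6 genes. The 6 genes were selected from the 37, so the shared pattern is no test. For SAV1, RBMS3 and WWTR1, not shown, replicate 2 was the highest array of shTWIST1 and of shControl.

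Further genes of the pathway and further YAP-TEAD targets, from longer lists, moved in both directions. Of 54 other Hippo genes measured, 3 passed in shTWIST1 + TWIST1 against shTWIST1, all lower (5.56%). Of all genes, 3.42% passed there in either direction and 1.77% were lower. Against shControl, 2 of the 54 passed (3.70%, against 2.62% of all genes in either direction). TNIK, a kinase of the family that can act beside STK3 and STK4, was 6.32 to 6.87 in shTWIST1 + TWIST1, 7.67 to 8.04 in shTWIST1 and 7.66 to 8.24 in shControl, and fell 2.46-fold against shTWIST1 (adjusted p = 0.00941) and 2.63-fold against shControl (adjusted p = 0.00812). MAP4K4, which phosphorylates LATS, and FRMD6, which acts upstream of the cascade, fell against shTWIST1, with log2 fold changes of -0.46 (adjusted p = 0.0339) and -0.67 (adjusted p = 0.0125). DCHS1, a protocadherin and ligand of FAT receptors, rose against shControl (log2 0.59, adjusted p = 0.0240).

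Of 49 other targets measured, 6 passed in shTWIST1 + TWIST1 against shTWIST1 (12.2%, against 3.42% of all genes in either direction). Of these, 3 were higher and 3 lower. Against shControl, 4 of the 49 passed, all higher (8.16%). Of all genes, 2.62% passed there in either direction and 1.08% were higher. TGM2, a transglutaminase, rose 2.01-fold against shTWIST1 (adjusted p = 0.00616) and 2.04-fold against shControl (adjusted p = 0.00673). CDC42EP3, a CDC42 effector, rose 2.06-fold (adjusted p = 0.00720) and 1.67-fold (adjusted p = 0.0377), and TNS1, a tensin of focal adhesions, 1.58-fold (adjusted p = 0.00762) and 1.53-fold (adjusted p = 0.0127). TGFB2, a growth factor, was 3.66-fold lower than in shTWIST1 (adjusted p = 0.0214), THBS1, the matrix protein thrombospondin, 2.36-fold lower (adjusted p = 0.0486) and MYC 1.70-fold lower (adjusted p = 0.00714). Against shControl the log2 fold changes of these were -1.04, -0.89 and -0.41 and missed the threshold (adjusted p = 0.184, 0.165 and 0.100). The median log2 fold change of the 49 was -0.11 against shTWIST1 and -0.12 against shControl, beside 0.01 and 0.02 over all genes.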

How the data were processed

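The authors deposited log2 expression of the 9 arrays, made with RMA (background correction, quantile normalization and probe summary, version not given in the sources used here), and array medians lay between 4.73 and 4.79. The array and chip definition are not given in the sources used here. Of 20673 probe sets, 19935 had 1 symbol and 738 none, and the brighter probe set of the single duplicated symbol was kept, leaving 19934 genes. Groups were compared with limma 3.58.1 (R 4.3.3) in 1 fit without a block, with Benjamini-Hochberg adjustment over all genes and a threshold of 0.05. Tables and plots used Python 3.11.15, pandas 2.3.3 and matplotlib 3.10.9. The fit was tested on simulated data with noise drawn independently for each array, so without pairing of same-numbered arrays. In shTWIST1 + TWIST1 against shControl it recovered 36% of changes of 0.5 log2, 86% of 1 and 94% of 2. It recovered 76% of changes of -1 and made 11 false calls. The 37 genes and all lists were chosen with earlier results of these data known, and the longer lists were written from general knowledge of the pathway. All 37 genes are accounted for, those past the threshold with every array's value, and up to 3 genes per direction and comparison are named from the longer lists, by size of change. Same-numbered arrays were checked for pairing by the correlation of their deviations from the group means. For replicates 1 to 3 it came to 0.14, 0.30 and 0.30 between the rescue and knockdown arrays. Between the knockdown and control arrays it came to 0.32, 0.51 and 0.29. Both were taken as paired, but every main call, SE and adjusted p comes from the fit without a block. The block was fitted as an alternative over all 9 arrays. It therefore also sets shared replicate effects for the rescue and control arrays. The paper's methods name a 2-tailed t-test with unequal variance, run here as an alternative.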

Additional observations from a re-analysis of the deposited data

How the results depend on the processing

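The 10 called changes of the 37 genes kept their direction in all 190 alternative values, of which 153 still passed. Many alternatives change only the error term, the set of genes or the arrays of the third group. These leave the difference itself unchanged, so the kept direction is no test of it there. Arrays of the same number in shTWIST1 + TWIST1 and shControl were not taken as paired (correlations of deviations 0.03, 0.22 and 0.11), and there the replicate block gave 7 of the 37 genes (adding NF2, adjusted p = 0.0341, CCN2, 0.0338, and GGH, 0.0376) and 801 of all genes, against 4 and 523. Against shTWIST1, the block gave 10 and 1076, against 6 and 682. In shTWIST1 against shControl the block gave 0 and 12, against 0 and 13. Fitting only the 6 arrays compared gave 2 of the 37 and 260 of all genes against shControl, and 353 of all genes against shTWIST1. The methods' t-test after adjustment gave 0 of 37 in each comparison, and 3, 2 and 0 of all genes (shTWIST1 + TWIST1 against shControl, against shTWIST1, and shTWIST1 against shControl). Unadjusted, at the methods' threshold, it gave 5, 8 and 0 of 37, and 1588, 1669 and 804 of all genes. With each array left out in turn, calls numbered 2 to 4 of 37 and 264 to 523 of all genes against shControl, 4 to 7 and 295 to 887 against shTWIST1, and 0 and 8 to 14 in shTWIST1 against shControl. Array weights gave 25 genes in the last of these. Leaving out all arrays numbered 2, chosen after seeing the data, gave 2 of 37 and 278 of all genes against shControl and 5 of all genes in shTWIST1 against shControl. TEAD2 then missed the threshold against shTWIST1 (adjusted p = 0.0519) and shControl (0.0592), as did MYOF (0.0660 and 0.108). The causes were not tested. Quantile normalization, median centring, a filter on dim genes, a trended and robust prior and testing every probe set left each count within 1.5 times. With 3 arrays per group, unadjusted intervals reach about 0.7 log2 to either side for genes as variable as CCN2. Differences of that size could not be resolved. After adjustment over all genes, larger differences in limma also missed the threshold. Against shTWIST1 these included -1.16 for CCN1 (adjusted p = 0.0986) and -1.08 for NF2 (adjusted p = 0.113).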
